A study of Mus musculus with 14 samples.

Results

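The oligodendrocyte lineage genes followed here are 30 mouse genes that mark the path from oligodendrocyte precursor to myelinating cell, taken by symbol. All 30 were present among the 25229 symbols of the progenitor count table and the 55353 symbols of the postmitotic count table. By role they comprise 5 transcription factors of the lineage, 8 precursor surface and matrix genes, 7 genes of committed and premyelinating cells, and 10 myelin genes. The first 13 of these are called precursor members below. The data are read counts of polyadenylated RNA from layer II/III tissue of mouse cerebral cortex at postnatal day 5, in 14 libraries. The series concerns Lhx2, a LIM-homeodomain transcription factor, and the dendrites of upper-layer neurons. In the progenitor experiment, progenitors of Lhx2lox/lox embryos received EGFP (control, n = 4) or Cre-EGFP (labelled mutant, n = 4) by in utero electroporation at E15.5. The postmitotic experiment used an EGFP plasmid, also electroporated at E15.5, in Lhx2lox/lox cortex (control, n = 3) and in NexCre/+; Lhx2lox/lox cortex (labelled mutant, n = 3).

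Every group, controls included, thus carried the floxed Lhx2 allele and received EGFP. In utero electroporation reaches only some of the progenitors that line the ventricle. The Nex locus (Neurod6) is active in young excitatory neurons, a lineage separate from oligodendrocytes. The labels name layer II/III neurons as the cell type, but the protocols describe microdissection and trypsin dissociation and name no sort of single cells, so each library is a tissue sample. Nothing in the labels assigns each library to its own animal, so p-values measure the spread between these libraries, which may be partly technical.

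Oligodendrocytes arise from precursors that divide and spread through the cortex before birth and after it. Precursors carry the PDGF receptor alpha and the proteoglycan NG2 (Cspg4), and depend on the transcription factors Olig2 and Sox10. When a precursor commits, it loses these surface proteins, passes through a short Gpr17- and Bcas1-positive premyelinating stage, and turns on Myrf, the factor that drives myelin genes. Myelin itself is still scarce in the upper cortical layers in the first postnatal week.

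Library totals were 22677019 to 29497595 counts in the progenitor and 21605777 to 25891416 counts in the postmitotic experiment, and every progenitor control was deeper than every progenitor library labelled mutant. Lhx2 was not lower in the libraries labelled mutant, which are therefore named by their labels throughout. Its level was 130.5, 120.4, 139 and 120 CPM (counts scaled to the TMM-adjusted library total) in the progenitor controls and 127.1, 114.4, 139.6 and 136.9 CPM in the libraries labelled mutant. In the postmitotic experiment Lhx2 rose by 0.29 ± 0.06 (SE) on the log2 scale (edgeR adjusted p = 0.0276), without overlap between the groups. Its counts cover the whole gene, so a transcript that lacks only the floxed part is still counted. The part of such transcripts in these values was not tested. Y-linked counts above 1 CPM were seen in 3 of 4 progenitor libraries labelled mutant and 0 of 4 controls, and library 3 labelled mutant also held 554 CPM of Xist. In the postmitotic experiment this was the case in 2 of 3 controls and 1 of 3 libraries labelled mutant. Summed upper-layer excitatory markers stood at 3817 to 4144 CPM in progenitor controls and 3777 to 4064 CPM in the libraries labelled mutant, with none of 10 at 0, and astrocyte, microglial and vascular markers were detected in every library.

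Members of every role were detected in the progenitor controls, and Ermn, Mobp and Opalin, genes of mature oligodendrocytes, were near the limit of detection. Levels of different genes are compared here per kilobase of annotated exon (CPM per kb, mean ± SD of 4 progenitor controls). Olig1, a basic helix-loop-helix factor of the lineage, was the highest member at 75.4 ± 6.77. Gpr17, a receptor of committed precursors, followed at 21.5 ± 1.82, Olig2 at 20.8 ± 2.53 and Cnp, a phosphodiesterase of myelinating cells, at 18.0 ± 1.78. No difference between these 3 neighbours was tested. Pdgfra stood at 12.6, Vcan at 12.3, Sox8 at 10.9, Mbp, the major cytoplasmic myelin protein, at 8.87 and Mog at 7.44. The lowest were Ermn at 0.108, Mobp at 0.0615 and Opalin at 0.0129, the last with 0 to 2 counts per library. In the postmitotic controls, a separate table whose levels were not compared with these, Olig1 was again the highest at 42.6 and Opalin had no count in any of the 6 libraries. A count of 0 there allows up to 0.139 CPM in the shallowest library (3 counts, for counting error only).

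Each member was tested as labelled mutant over control with the quasi-likelihood F test of edgeR, p-values were adjusted by Benjamini and Hochberg over all tested genes, and a gene was called at an adjusted p under 0.05. Of the 30 members, 28 had enough counts to be tested in each experiment, and Mobp and Opalin did not. In the progenitor experiment 6 of 28 were called higher (Pdgfra, Cspg4, Vcan, Pcdh15, Mog and Ermn) against 12% of all 15295 tested genes. Neu4 alone was called lower, against 11.4% of all genes. In either direction this made 7 of 28, near the 23.4% of all genes, and at an unadjusted p under 0.05 there were 9 of 28, against 37.1% of all genes. The share of members called was thus near the background. The CPM of the 2 groups did not overlap for 5 of the 28 upward (13.7% of all genes) and 1 downward (13.3%). By role, with no test of a difference between roles, 4 of the 6 higher members encode precursor surface or matrix proteins. Of the lineage factors 0 of 5 was called, and all 7 committed members had a log2 fold change below 0. Members and roles were chosen with earlier results of these data known, so these counts by role are a description and no support. As these are tissue samples, fewer cells of a type and less RNA per cell cannot be told apart.

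**Figure D1:**
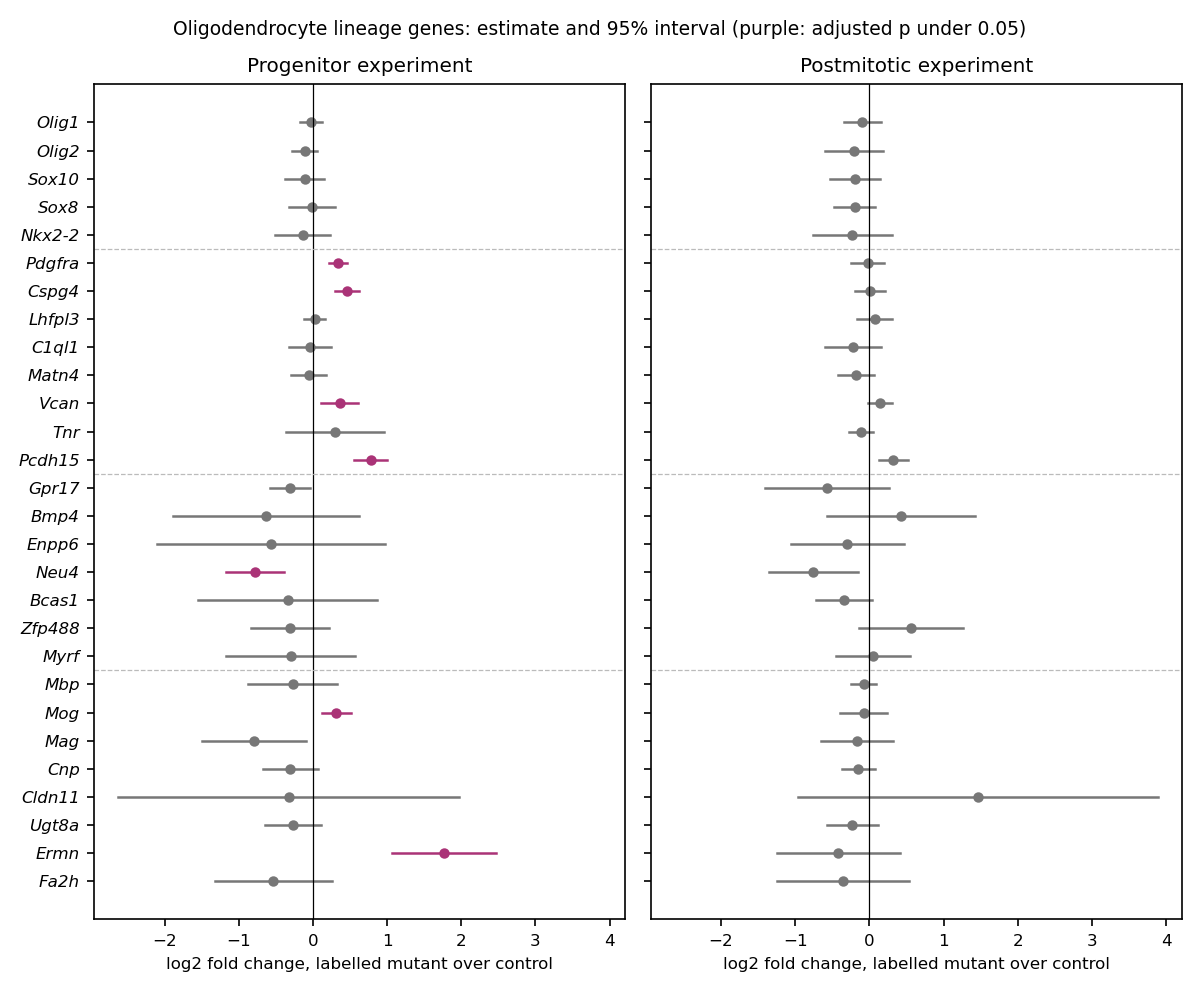
Log2 fold change of libraries labelled mutant over control (x axis) for the 28 tested members in role order (y axis, dashed lines between lineage factors, precursor surface and matrix, committed, and myelin members), as point and 95% confidence interval from edgeR. In the progenitor panel 6 members lie above 0 and Neu4 below 0 with an adjusted p under 0.05 (purple), and in the postmitotic panel no member is called. Intervals of Enpp6, Bcas1 and Cldn11 are wide in the progenitor panel.

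Upstream sequences of 5 of the 7 called members, from the RefSeq promoter table of GRCm38.p6, are shown because these transcripts rose or fell in the progenitor experiment. Those of Mog and Pcdh15, the latter of a start inside the annotated gene, are not printed. Each runs 5′ to 3′ on the strand of its gene and ends before the annotated transcript. Pdgfra is at chr5:75152001-75152250 (plus strand), Cspg4 at chr9:56864854-56865032 (plus), Vcan at chr13:89742513-89742762 (minus), Neu4 at chr1:94020243-94020450 (plus) and Ermn at chr2:58052865-58053114 (minus). Capitals mark matches to the motifs named in the next paragraph.
Pdgfra: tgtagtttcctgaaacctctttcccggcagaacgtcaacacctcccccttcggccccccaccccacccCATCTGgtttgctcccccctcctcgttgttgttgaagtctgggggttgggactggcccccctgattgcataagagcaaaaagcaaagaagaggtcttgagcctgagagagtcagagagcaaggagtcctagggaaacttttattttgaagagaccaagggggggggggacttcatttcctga
Cspg4: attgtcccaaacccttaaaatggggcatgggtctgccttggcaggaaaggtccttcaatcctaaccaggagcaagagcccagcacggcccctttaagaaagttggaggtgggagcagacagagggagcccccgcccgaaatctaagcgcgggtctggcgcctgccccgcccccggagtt
Vcan: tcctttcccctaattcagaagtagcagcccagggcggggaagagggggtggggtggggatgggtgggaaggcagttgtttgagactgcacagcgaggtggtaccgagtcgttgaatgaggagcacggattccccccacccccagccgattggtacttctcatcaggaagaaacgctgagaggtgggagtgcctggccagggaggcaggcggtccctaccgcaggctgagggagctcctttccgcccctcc
Neu4: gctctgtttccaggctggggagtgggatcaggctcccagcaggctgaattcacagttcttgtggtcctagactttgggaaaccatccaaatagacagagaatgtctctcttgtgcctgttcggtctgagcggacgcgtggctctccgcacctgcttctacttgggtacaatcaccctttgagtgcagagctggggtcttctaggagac
Ermn: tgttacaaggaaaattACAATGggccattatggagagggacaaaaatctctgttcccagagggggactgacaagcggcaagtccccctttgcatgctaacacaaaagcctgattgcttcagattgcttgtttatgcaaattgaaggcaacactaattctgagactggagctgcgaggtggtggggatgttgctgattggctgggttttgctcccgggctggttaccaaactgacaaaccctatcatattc

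The 250 bases before each start were searched on both strands for 4 short motifs, whose matches did not overlap in the members: a SOX core (ACAAAG or ACAATG), the E-boxes CAGCTG and CAGATG, and TAATTA, a core of homeodomain sites. An entry was found for 22 of the 30 members, some with several starts, which gave 25 windows. The SOX core was present in 9 of 25 windows, against 25.2% of all 32851 promoters in the table. CAGATG was in 3, against 14.4%, CAGCTG in 1, against 13%, and TAATTA in 0, against 4.84%. Among the 5 promoters shown, Pdgfra holds CAGATG on its minus strand, printed as CATCTG, at 182 bases before the start, and Ermn holds ACAATG at 234 bases before the start. The windows of Cspg4, Vcan and Neu4 hold none of these letters, and Cspg4 and Neu4 are shown without their transcribed end. A match describes the letters and is no evidence of binding.

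Lineage transcription factors were close to their control levels in the progenitor libraries labelled mutant, with 0 of 5 called and a median log2 fold change of -0.11, against 0.00 for all tested genes. Olig2, which specifies the lineage, had 46.2, 49.4, 60.8 and 54.6 CPM in controls and 48.2, 48.2, 47.9 and 51.0 CPM in libraries labelled mutant, and the groups overlapped (log2 fold change -0.11 ± 0.08, SE, 95% interval -0.28 to 0.06). Olig1, its neighbour on chromosome 16, had a log2 fold change of -0.02 ± 0.07 with an interval of -0.17 to 0.12. Sox10, a factor of the whole lineage that acts with Olig2, was at -0.11 ± 0.12, its relative Sox8 at -0.01 ± 0.14 and Nkx2-2, a homeodomain factor of precursors close to differentiation, at -0.14 ± 0.17. For Olig1 and Olig2 these intervals leave room for a fall of at most 0.17 and 0.28 on the log2 scale.

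Over all 13 precursor members the median log2 fold change was -0.01, with 7 below 0 and 6 above, against a median of 0.00 for all tested genes. Among precursor surface and matrix genes alone 4 of 8 rose and 0 fell (all genes, 12% higher and 11.4% lower), with a median log2 fold change of 0.32. Pdgfra encodes the receptor through which PDGF-A keeps precursors dividing (GRCm38/mm10 chromosome 5, 75152292 to 75198215, plus strand). It had 117, 126.5, 136 and 124 CPM in progenitor controls and 159, 152, 162 and 165 CPM in libraries labelled mutant, so that every library labelled mutant was above every control. Its log2 fold change was 0.34 ± 0.05 (SE; edgeR adjusted p = 0.00162). Cspg4 encodes NG2, the proteoglycan by which precursors are usually recognised (chromosome 9, 56865033 to 56899870, plus strand). Its level was 41.3, 48.25, 50.4 and 43.7 CPM in controls and 65.8, 60.75, 67.5 and 59.1 CPM in libraries labelled mutant. The groups did not overlap, and Cspg4 rose by 0.46 ± 0.07 on the log2 scale (edgeR adjusted p = 0.00136).

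Pcdh15, a protocadherin of hair cell tip links that is also enriched in oligodendrocyte precursors, rose most among the precursor members. It had 25.2, 33.8, 31.9 and 33.95 CPM in progenitor controls and 61.4, 53.3, 49.7 and 49.8 CPM in libraries labelled mutant. No library labelled mutant came near the controls, and the log2 fold change was 0.78 ± 0.10 (SE; edgeR adjusted p = 0.000572). Its locus on chromosome 10, 73099342 to 74649737, plus strand, holds several small noncoding genes and pseudogenes. Vcan, the matrix proteoglycan versican, had 147, 223, 177 and 164 CPM in controls and 219, 225, 222.5 and 248 CPM in libraries labelled mutant. Control 2 reached the range of the libraries labelled mutant, so the groups overlapped, and the rise of 0.36 ± 0.11 (edgeR adjusted p = 0.0410) was lost without any 1 library other than control 2, with edgeR adjusted p up to 0.106. The calls of Pdgfra, Cspg4 and Pcdh15 were kept when any 1 library was left out.

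**Figure D2:**
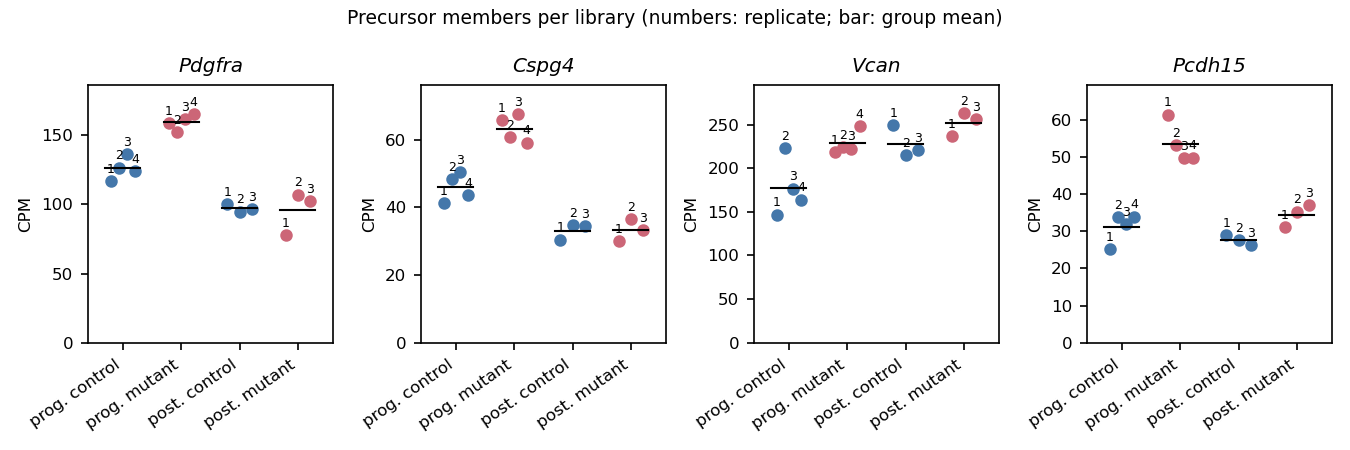
TMM-scaled CPM (y axis) of Pdgfra, Cspg4, Vcan and Pcdh15 in each library of the 4 groups (x axis; prog., progenitor experiment; post., postmitotic experiment), with the replicate number at each point and a bar at the group mean. In the progenitor experiment the libraries labelled mutant lie above every control for Pdgfra, Cspg4 and Pcdh15, and control 2 overlaps them for Vcan. The experiments come from separate tables, so levels should be compared within an experiment only.

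The other 4 surface and matrix genes did not pass the test. Lhfpl3, a transmembrane protein of precursors, had a log2 fold change of 0.02 ± 0.07 (SE), the secreted C1ql1 of -0.04 ± 0.13 and the matrix protein Matn4 of -0.05 ± 0.11. Tnr, the matrix glycoprotein tenascin-R, had 23.7, 64.3, 52.75 and 55.9 CPM in controls and 59.3, 59.15, 56.8 and 67.65 CPM in libraries labelled mutant. Control 1 alone was far below the rest, and its log2 fold change of 0.30 ± 0.28 had an interval of -0.36 to 0.96. Of the 8 surface and matrix genes, 4 thus rose while Lhfpl3, C1ql1 and Matn4 stayed near their control levels. Annotated exon length separates them in the same way. It is 1473 to 5174 bases for Lhfpl3, C1ql1 and Matn4, and 10024 to 23773 bases for Pdgfra, Cspg4, Vcan, Pcdh15 and Tnr. The part of transcript length in these values was not tested.

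Cspg4 is also made by pericytes, and Pdgfra by fibroblasts of vessels and meninges. Of 8 mural cell markers 4 were higher and 0 lower in the progenitor libraries labelled mutant (median 0.41; all genes, 12% higher and 11.4% lower), among them the channel subunits Abcc9 (0.70 ± 0.12) and Kcnj8 (0.44 ± 0.12), the receptor Notch3 (0.62 ± 0.14) and the pericyte regulator Rgs5 (0.52 ± 0.14). Their summed level was 183 to 304 CPM in controls and 264.5 to 360 CPM in libraries labelled mutant, with no marker at 0. Of 9 leptomeningeal fibroblast markers 0 was called, and their summed level was 42.3 to 605 CPM in controls and 77.3 to 713 CPM in libraries labelled mutant. Of 10 cell cycle markers 6 were higher and 0 lower, against the same 12% and 11.4%, and their summed levels of 136 to 167 CPM in controls and 165 to 198 CPM in libraries labelled mutant overlapped. The part of these cells in the rise of Pdgfra and Cspg4 was not tested.

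Genes of committed and premyelinating cells had 7 of 7 log2 fold changes below 0 in the progenitor experiment and a median of -0.34, although only Neu4 was called. Over all tested genes 49.2% were below 0. Microglial markers had 10 of 10 below 0 (median -0.35, 2 called lower and 0 higher), with summed levels of 153 to 224 CPM in controls and 127 to 170 CPM in libraries labelled mutant. Of 13 astrocyte markers 4 were lower and 1 higher, with sums of 2572 to 3376 CPM and 2207 to 2797 CPM. Of all genes 11.4% were called lower and 12% higher. The part of these cells in the values of the committed members was not tested. Neu4, a sialidase of the lineage (chromosome 1, 94020451 to 94028334, plus strand), had 5.01, 6.07, 7.14 and 5.47 CPM in controls and 2.78, 2.89, 3.57 and 4.54 CPM in libraries labelled mutant. The groups did not overlap, and Neu4 fell by 0.78 ± 0.18 (SE) on the log2 scale (edgeR adjusted p = 0.00990). This call was kept when any 1 library was left out, with edgeR adjusted p up to 0.0303.

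Gpr17, the receptor that defines the transient committed stage, had 99.7, 109.6, 122 and 115 CPM in controls and 79.1, 80.4, 86.1 and 116 CPM in libraries labelled mutant. Library 4 labelled mutant stood among the controls while the other 3 lay below all of them, and the log2 fold change of -0.31 ± 0.12 was not called (edgeR adjusted p = 0.0969), though DESeq2 called it lower (adjusted p = 0.0382). Bcas1, a marker of premyelinating cells, showed the same arrangement more sharply, with 18.7, 27.8, 30.1 and 40.1 CPM in controls and 13.3, 14.5, 15.9 and 48.6 CPM in libraries labelled mutant. Enpp6, a choline phosphodiesterase of newly forming oligodendrocytes, had 2.36, 4.27, 3.55 and 6.19 CPM in controls and 0.957, 1.68, 1.29 and 7.22 CPM in libraries labelled mutant. For both genes library 4 labelled mutant was the highest of all 8 libraries and the other 3 were the lowest. Their log2 fold changes were -0.34 ± 0.50 and -0.56 ± 0.66, with intervals that span 0 widely.

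Myrf, the membrane-bound factor that switches on myelin genes, had 2.81, 4.23, 5.10 and 6.36 CPM in controls and 2.52, 2.54, 2.82 and 7.175 CPM in libraries labelled mutant (log2 fold change -0.30 ± 0.38). Again library 4 labelled mutant was the highest of all. Zfp488, a zinc finger corepressor that promotes differentiation, was at -0.31 ± 0.24 and Bmp4, a ligand that slows differentiation and is made by committed precursors, at -0.63 ± 0.55. Bmp4 had 2.04, 3.36, 5.06 and 3.37 CPM in controls and 3.61, 1.12, 0.581 and 3.67 CPM in libraries labelled mutant. It was lowest in control 1 and in libraries 2 and 3 labelled mutant, within each group, as was the sum of leptomeningeal fibroblast markers. Bmp4 is made by other cells of the tissue as well, and their part in these values was not tested.

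Myelin members were mixed: 6 of 8 tested had a log2 fold change below 0 (median -0.29), yet the 2 that were called both rose. Mbp had 62.3, 71.6, 67.7 and 98.7 CPM in controls and 50.1, 59.8, 45.8 and 93.15 CPM in libraries labelled mutant, with the highest value of each group in library 4, and a log2 fold change of -0.27 ± 0.25. Cnp was at -0.30 ± 0.16 and the glycolipid enzymes Ugt8a and Fa2h at -0.27 ± 0.17 and -0.54 ± 0.36. Mag, an adhesion molecule of the innermost myelin layer, had 3.54, 5.26, 3.85 and 5.81 CPM in controls and 2.09, 1.81, 1.95 and 4.80 CPM in libraries labelled mutant. Libraries 1 to 3 labelled mutant lay below every control and library 4 did not, and the log2 fold change of -0.80 ± 0.31 was not called (edgeR adjusted p = 0.0927). Mag was called lower with DESeq2 (adjusted p = 0.0467), with limma-voom (adjusted p = 0.0451) and when all 14 libraries were in 1 edgeR fit (adjusted p = 0.0426). Mobp, not tested, had 8, 6, 9 and 23 counts in controls and 1, 4, 4 and 5 counts in libraries labelled mutant, without overlap.

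Mog, a glycoprotein of the outer myelin surface, was called higher, as was Ermn. It had 12.3, 13.0, 13.3 and 12.2 CPM in progenitor controls and 14.4, 18.4, 15.0 and 15.3 CPM in libraries labelled mutant, and the groups did not overlap. Its rise of 0.31 ± 0.09 (SE; edgeR adjusted p = 0.0262) was lost without control 1, control 4 or library 2 labelled mutant, with edgeR adjusted p up to 0.0690. Library 4 labelled mutant was at 0.964 times the mean of libraries 1 to 3 for Mog.

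Ermn encodes ermin, a cytoskeletal protein of mature oligodendrocytes, and had the highest log2 fold change of the members at the lowest tested level. It had 9, 8, 12 and 13 counts in controls and 30, 45, 18 and 33 counts in libraries labelled mutant, or 0.305 to 0.453 CPM against 0.747 to 1.94 CPM. The groups did not overlap, and the log2 fold change was 1.77 ± 0.32 (SE; edgeR adjusted p = 0.00301). The gene (chromosome 2, 58045113 to 58052864, minus strand) overlaps Galnt5 on the plus strand. Whether reads were assigned by strand was not given in the sources used here, but Galnt5 had at most 0.0870 CPM in any library. Gpr17, Cnp, Matn4 and Bmp4 also overlap protein-coding genes of the opposite strand (Lims2, Dnajc7, Rbpjl and Gm15217), whose reads could be shared with them.

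**Figure D3:**
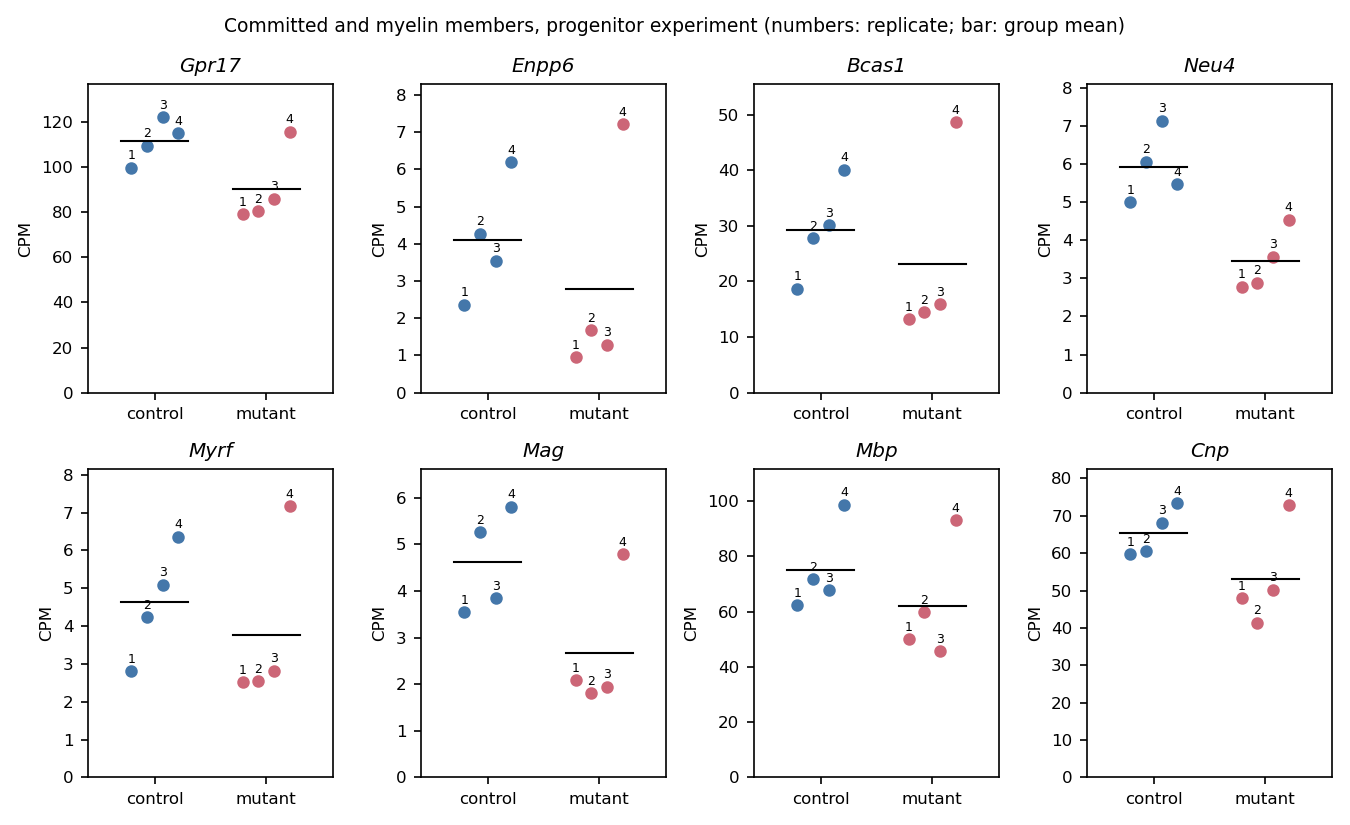
TMM-scaled CPM (y axis) of 8 committed and myelin members in the 4 controls and the 4 libraries labelled mutant (x axis) of the progenitor experiment, with the replicate number at each point and a bar at the group mean. For Enpp6, Bcas1 and Myrf library 4 labelled mutant is the highest of all 8 libraries while libraries 1 to 3 labelled mutant are low, and Neu4 alone has no overlap between the groups.

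Library 4 labelled mutant stood apart in the progenitor experiment by stage. It was the highest of its group for 7 of 7 committed members, with a median of 2.08 times the mean of libraries 1 to 3. The ratio was 5.52 for Enpp6, 3.34 for Bcas1, 2.73 for Myrf and 1.41 for Gpr17. For myelin members it was highest in 6 of 10, with a median of 1.57, and for precursor members in 10 of 13, with a median of 1.14. Control 4 was likewise the highest control for 4 of 7 committed members (median ratio 1.21) and 6 of 10 myelin members (1.18), but for 2 of 13 precursor members. Its highest ratios among genes above 1 CPM were 1.82 for Enpp6 and 1.58 for Fa2h. These libraries share a number and no source of their own that the labels name.

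Summed over each role, committed members stood at 134, 160, 178 and 182 CPM in controls and at 105, 107, 114 and 193 CPM in libraries labelled mutant. Surface and matrix members stood at 425.5, 559, 512 and 490 CPM in controls and at 623, 611, 627 and 666 CPM in libraries labelled mutant. The surface sum was thus higher in all 4 libraries labelled mutant, while the committed sum was lower in 3 and highest of all in the other. Lineage factors summed to 262 to 318 CPM in controls and 259 to 285 CPM in libraries labelled mutant, and myelin members to 146.5 to 209 CPM and 122 to 204 CPM. Neurog2, a proneural factor, was looked up after its values were seen. It was at 176, 119, 210 and 63.4 CPM in libraries 1 to 4 labelled mutant, with library 4 the lowest. Controls held at most 0.382 CPM. Among libraries 1 to 3 labelled mutant, the committed sum was lowest in library 1 and Neurog2 in library 2, and both were highest in library 3. The postmitotic means of Neurog2 were 0.521 CPM (control) and 1.06 CPM (labelled mutant), without overlap and not called (edgeR adjusted p = 0.155). No link between Neurog2 and the committed sums was tested.

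**Figure D4:**
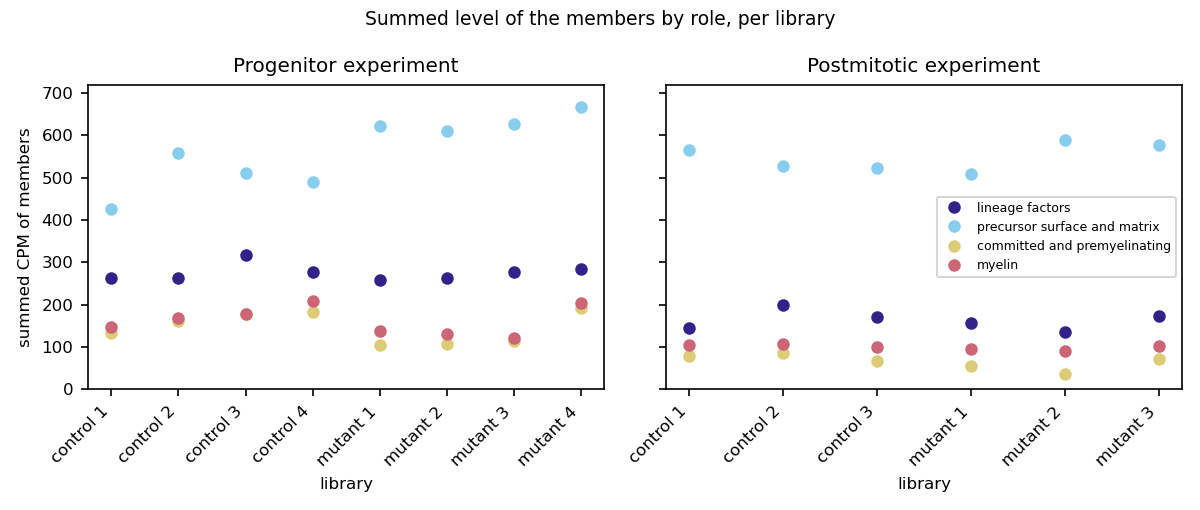
Summed CPM of the members of each role (y axis) in every library (x axis) of the progenitor experiment (left) and of the postmitotic experiment (right). In the progenitor experiment the surface and matrix sum is 425.5 to 559 CPM in controls and 611 to 666 CPM in libraries labelled mutant, and the committed sum is 105 to 114 CPM in libraries 1 to 3 labelled mutant and 193 CPM in library 4.

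Libraries 1 to 3 of each group alone are given as a description, since library 4 was left out because these same members were high in it and that choice fixes the direction for them. There 4 members passed the threshold upward (Pdgfra, Cspg4, Pcdh15 and Ermn; 7% of all genes) and 7 downward (6.27% of all genes), and nothing is read from the second count. The 7 were Gpr17, Enpp6, Neu4, Bcas1, Mbp, Mag and Cnp, of which Neu4 alone passed in all 8 libraries. Log2 fold changes moved from -0.56 to -1.37 for Enpp6, from -0.34 to -0.81 for Bcas1, from -0.31 to -0.43 for Gpr17 and from -0.80 to -1.11 for Mag. Pdgfra (0.32), Cspg4 (0.47), Pcdh15 (0.85) and Ermn (1.81) stayed near their values over all libraries. Vcan (0.29 ± 0.13, edgeR adjusted p = 0.200) and Mog (0.31 ± 0.11, edgeR adjusted p = 0.103) were no longer called. Leaving out only library 4 labelled mutant gave 5 higher and 8 lower members, with Sox10 and Myrf lower and Mbp not called. The number of lower members therefore rests on whether 1 library is included.

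Y-linked counts also moved with the label in the progenitor experiment. Only libraries 2 to 4 labelled mutant had Y-linked counts above 1 CPM, and no control did. With their presence as a covariate, the label estimate thus rests on library 1 labelled mutant alone, set against the controls. Estimates alone are therefore given. Pdgfra was at 0.33, Ermn at 1.71 and Neu4 at -1.09, the first 2 near their main estimates and Neu4 further from 0. Mog was at 0.18 and Vcan at 0.30. Label and Y-linked counts cannot be told apart in the other libraries labelled mutant.

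Cldn11 encodes the claudin of myelin and also of the arachnoid barrier, and its values were ordered like those of meningeal markers in each progenitor group. It had 1.14, 7.44, 14.4 and 7.085 CPM in progenitor controls and 14.8, 1.85, 1.29 and 6.18 CPM in libraries labelled mutant. The summed level of 9 leptomeningeal fibroblast markers in the same libraries was 42.3, 301, 605 and 257 CPM in controls and 713, 94.7, 77.3 and 274.5 CPM in libraries labelled mutant. Within each group the order of the libraries was the same for both. In the postmitotic experiment Cldn11 was at 0.362 to 0.648 CPM in 5 libraries and at 3.42 CPM in library 2 labelled mutant, where the markers summed to 112 CPM against at most 29.5 CPM elsewhere. Its log2 fold changes of -0.32 ± 0.95 and 1.46 ± 0.96 were not called. The part of meningeal cells in these values was not tested.

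**Figure D5:**
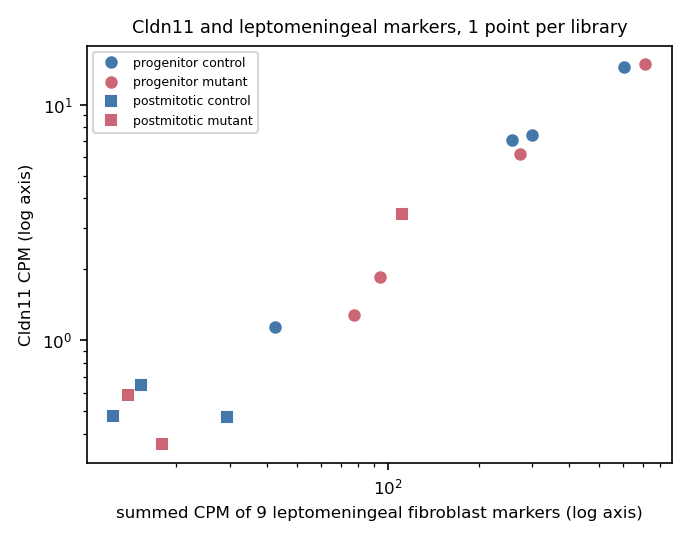
Cldn11 (y axis, CPM, log axis) against the summed level of 9 leptomeningeal fibroblast markers (x axis, CPM, log axis) in all 14 libraries, circles for the progenitor and squares for the postmitotic experiment. Libraries with more of the markers have more Cldn11 in both progenitor groups, from 42.3 CPM of markers and 1.14 CPM of Cldn11 in progenitor control 1 to 713 and 14.8 CPM in progenitor library 1 labelled mutant.

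Other genes of the lineage were read from 4 lists of genes that are not members, with 12% and 11.4% of all genes higher and lower in the progenitor experiment. Of 24 tested further myelin genes 1 was higher and 6 were lower, with a median of -0.20. The falls included those of Car2, a carbonic anhydrase (-0.72 ± 0.08), Omg, a myelin-associated inhibitor of neurite growth (-0.71 ± 0.16), Gsn, the actin-severing gelsolin (-0.52 ± 0.11), and Enpp2, autotaxin (-0.50 ± 0.10). Of 20 further precursor markers only Cacng4, an AMPA receptor auxiliary subunit (0.21 ± 0.06), rose and only Susd5 fell (-0.49 ± 0.15), with a median of 0.03. Neurons and astrocytes express several of these genes too.

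Growth signals and receptors of the lineage went both ways, with 3 of 25 tested higher and 2 lower (median 0.13). Gli1, a target of Sonic hedgehog signalling (0.65 ± 0.18), and the receptor Igf1r (0.19 ± 0.06) rose, while Lingo1, a brake on myelination that neurons also carry (-0.36 ± 0.06), and Gpr37, a receptor of differentiating oligodendrocytes (-0.44 ± 0.11), fell. Of 29 tested transcription regulators 4 were higher and 1 lower (median 0.04). Sox11 (0.62 ± 0.07) and Sox4 (0.24 ± 0.06), which can hold back differentiation in this lineage and are abundant in young neurons, and the chromatin remodeller Chd8 (0.19 ± 0.05) rose, and Yy1, a factor needed for differentiation, fell (-0.17 ± 0.05).

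None of the 28 tested members was called by edgeR in the postmitotic experiment, where 1.96% of 17775 tested genes were called, 0.895% higher and 1.06% lower. At an unadjusted p under 0.05 there were 2 members (Pcdh15 and Neu4), against 11.4% of all genes, and DESeq2 and limma-voom also called 0. Log2 fold changes were below 0 for 20 of 28 members, against 50.6% of all genes, with a median of -0.16. Lineage factors had a median of -0.20, surface and matrix genes of -0.01, committed genes of -0.30 and myelin genes of -0.16. The groups of a member failed to overlap in 1 case upward (7.98% of all genes) and 3 downward (8.44%).

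Pdgfra had 100.3, 94.7 and 96.7 CPM in postmitotic controls and 77.7, 107 and 102 CPM in libraries labelled mutant, with a log2 fold change of -0.02 ± 0.10 and an interval of -0.25 to 0.20. Cspg4 had 30.4, 34.65 and 34.4 CPM in controls and 29.96, 36.5 and 33.2 CPM in libraries labelled mutant. Its log2 fold change was 0.00 ± 0.09, and the interval of -0.20 to 0.21 does not reach the progenitor estimate of 0.46. The interval of Pdgfra likewise ends below 0.34. Pcdh15 was the member closest to a call, with 28.9, 27.6 and 26.2 CPM in controls and 31.1, 35.3 and 37.1 CPM in libraries labelled mutant. These groups did not overlap, and the log2 fold change of 0.32 ± 0.09 had an edgeR adjusted p = 0.111. Vcan was at 0.14 ± 0.07 and Tnr at -0.11 ± 0.07.

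Neu4 was again low in the postmitotic libraries labelled mutant, with 2.22, 2.80 and 2.17 CPM in controls and 1.73, 0.787 and 1.755 CPM in libraries labelled mutant. The groups did not overlap and the log2 fold change of -0.76 ± 0.28 was close to that of the progenitor experiment, but it was not called (edgeR adjusted p = 0.273). Gpr17 had 61.0, 67.8 and 53.0 CPM in controls and 39.1, 26.1 and 57.1 CPM in libraries labelled mutant. Libraries 1 and 2 labelled mutant lay below every control and library 3 did not, so the estimate of -0.57 ± 0.32 was not called (edgeR adjusted p = 0.607). On libraries 1 and 2 of each group alone, a choice made after seeing these values that fixes the direction, its estimate was -0.98 and it alone of the members passed the threshold (all genes, 0.741% higher and 1.01% lower), which is a description and no support. Bcas1 was at -0.34 ± 0.18, Zfp488 at 0.56 ± 0.33, Myrf at 0.05 ± 0.23 and Mbp at -0.08 ± 0.08.

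The remaining postmitotic values were small or rested on few counts. Olig1 (-0.10 ± 0.11), Olig2 (-0.21 ± 0.17), Sox10 (-0.19 ± 0.15), Sox8 (-0.20 ± 0.13) and Nkx2-2 (-0.23 ± 0.25) all lay below 0 with intervals that include it. Matn4 (-0.18 ± 0.11) and Ugt8a (-0.23 ± 0.16) were lower without overlap between groups and were not called. Ermn, which had risen in the progenitor experiment, was at 0.913, 1.34 and 1.48 CPM in controls and 1.49, 0.865 and 0.418 CPM in libraries labelled mutant, with a log2 fold change of -0.42 ± 0.38. Among genes of the lineage that are not members, 1 of 26 growth signals was higher and 1 lower, 1 of 20 further precursor markers higher and 2 lower, and 1 of 22 further myelin genes higher and 2 lower. Enpp2 fell by 0.69 ± 0.10 and Fgfr2 by 0.55 ± 0.12 on the log2 scale, and Sulf2, a heparan sulfatase, rose by 0.61 ± 0.07. Susd5, Enpp2 and Gsn were called lower in both experiments and Sox11 and Gli1 higher.

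The difference between the experiments was tested as the interaction of experiment and label in all 14 libraries. It was called for 2 of 28 members, against 6.94% of 15643 genes. For Cspg4 the postmitotic log2 fold change was lower than the progenitor one by 0.46 ± 0.12 (difference -0.46, edgeR adjusted p = 0.0261), and for Ermn the difference was -2.18 ± 0.53 (edgeR adjusted p = 0.0212). The Cspg4 call was lost without any 1 of progenitor control 4, progenitor libraries 1 and 3 labelled mutant, postmitotic controls 2 and 3 and postmitotic library 1 labelled mutant, with edgeR adjusted p up to 0.0838. That of Ermn was lost without postmitotic control 2 or 3, with edgeR adjusted p up to 0.0529. Pcdh15 (-0.46 ± 0.14, edgeR adjusted p = 0.0648), Pdgfra (-0.36 ± 0.12, edgeR adjusted p = 0.0740) and Mog (-0.39 ± 0.18, edgeR adjusted p = 0.195) did not pass. For Neu4 the difference was 0.02 ± 0.36 with an interval of -0.73 to 0.78, too wide to show that the experiments were alike. The experiments differ in their controls and count tables as well as in the source of Cre.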

How the data were processed

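The authors deposited a table of read counts per gene symbol for each experiment, whole numbers that are not normalised. The tools named in the submitters' processing notes are HISAT2, featureCounts and DESeq2, with build mm10 (versions, annotation and use of strand: not given in the sources used here). All 30 members, their roles and the other lists were chosen with earlier results of these data known.

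Each whole table was fitted alone with edgeR 4.0.16 (R 4.3.3): filterByExpr, TMM factors, robust glmQLFit, glmQLFTest, Benjamini-Hochberg adjustment over all tested genes, called at 0.05. CPM use TMM-scaled totals, and fold changes are labelled mutant over control, with SE from the F statistic. The common biological coefficient of variation was 0.110 and 0.112. The interaction fit used symbols shared by both tables. All tested members could be named. From each other list up to 4 called genes with the smallest p were named, or the 2 with the smallest p where none was called. A result under this rule was left out and is not reported here. Alternatives were DESeq2 1.42.0, limma-voom (limma 3.58.1), other scalings and filters, no robust step, the replicate number as a block, a Y-linked covariate, thinned counts, all libraries in 1 fit, and leaving out each library. Libraries 1 to 3 of each progenitor group, and 1 and 2 of each postmitotic group, were added after seeing the data. Chi-square per degree of freedom between replicates of a group was 6.73 to 20.7, above sampling noise. This spread may be partly technical and does not show that libraries come from separate animals. Each library was counted as 1. On simulated counts for the progenitor comparison (15195 genes) 98% of changes of 1 and 63% of changes of 0.5 on the log2 scale were recovered, and for the postmitotic comparison (17539 genes) 94% and 48%. The simulation gave every gene the common coefficient of variation and placed changes only in genes above 1 CPM. These shares therefore do not hold for members that vary more or lie lower, such as Bcas1, Enpp6, Cldn11 and Ermn. Positions are from GENCODE M21 (GRCm38/mm10) and upstream sequences from RefSeq (GRCm38.p6). The authors' own test results were not used here.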

Additional observations from a re-analysis of the deposited data

Results flagged for a closer look

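In the progenitor libraries labelled mutant, 1 library lay far from the other 3 for 8 members, by Dixon's criterion at 95%. Library 4 was high for Olig2 (50.96 CPM), Sox8 (42.2 CPM), Nkx2-2 (3.89 CPM), Enpp6 (7.22 CPM), Bcas1 (48.6 CPM), Myrf (7.175 CPM) and Mag (4.80 CPM), and library 3 for Olig1 (173 CPM). These are 8 of 60 member groups of 4 libraries tested, and chance flags about 1 in 20. The members were measured in the same libraries and are not independent. The cause of the high values in library 4 was not tested.

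The effect of the label differed between the experiments for 2 of 28 members in the interaction test, near the 6.94% of all genes. The log2 fold change of Cspg4 was different by -0.46 and that of Ermn by -2.18, postmitotic minus progenitor. The call of Cspg4 was lost without any 1 of 6 libraries (progenitor control 4, progenitor libraries 1 and 3 labelled mutant, postmitotic controls 2 and 3, postmitotic library 1 labelled mutant) and that of Ermn without postmitotic control 2 or 3. Ermn rests on 8 to 45 counts per progenitor library.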

How the results depend on the processing

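Of the alternative values for the 7 progenitor members called, 120 kept direction and call and 19 lost the call. Of those for uncalled members, 399 stayed uncalled and 21 gained a call in the progenitor experiment, against 499 and 2 in the postmitotic one. No value reversed its direction among called members. These values include the fit with the Y-linked covariate, which in the progenitor experiment rests on library 1 labelled mutant alone. Pdgfra, Cspg4, Pcdh15, Neu4 and Ermn lost no call when 1 library was left out. The number of lower members in the progenitor experiment was 3 with DESeq2, 2 with limma-voom, 2 with all 14 libraries in 1 fit, 0 with the Y-linked covariate, 7 with libraries 1 to 3 of each group (chosen for the values of these members, so no support), and 1 to 8 when each library was left out in turn, the 8 without library 4 labelled mutant. The number of higher members was 2 with the Y-linked covariate and otherwise 4 to 6 without 1 library. Over all genes the progenitor count was 893 with the Y-linked covariate, 2034 with libraries 1 to 3, and 2383 to 3712 without 1 library, the lowest without library 3 labelled mutant. In the postmitotic experiment 1 member, Pcdh15, was higher with no filter on low counts (edgeR adjusted p = 0.0364), 1 was lower with libraries 1 and 2, and 0 was called without any 1 library. Over all genes that count was 524 with DESeq2, 723 with no filter, and 160 (without control 2) to 467 without 1 library. For the difference between the experiments DESeq2 gave 1651 genes, and leaving out 1 library gave 0 to 3 members and 598 to 1481 genes. The median of committed members was -0.94 without progenitor library 4 labelled mutant.

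Deviations of libraries that share a replicate number correlated at -0.44, 0.01, -0.18 and 0.09 in the progenitor and at -0.10, 0.03 and -0.20 in the postmitotic experiment. Progenitor libraries of different number correlated at values from -0.37 to 0.45. These correlations therefore do not settle whether a number marks a shared source, which was not tested. With the number as a block, 6 members were higher and 5 lower (Neu4, Gpr17, Mbp, Mag and Cnp) in the progenitor experiment and 0 were called in the postmitotic one. Low counts limit Ermn, Mobp and Opalin.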
